A study of Mus musculus with 12 samples.

Results

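Hbegf, Dusp6 and Myc are 3 genes of growth factor signalling, and 3 of the 8267 genes with a name among the 12 arrays of the series. They were picked by name because their log ratios were higher after 4 h of BMP6 than in control, and each is measured by 1 probe. The arrays are two-colour Agilent oligonucleotide arrays of MECs, an endothelial cell line from the mouse embryo proper, and the study asks how such cells respond to BMP6. Cells had received BMP6, a bone morphogenetic protein of the TGF-beta superfamily, for 4, 12 or 24 h, or a mock treatment as control, with 3 arrays in each group. The labels give no time for the mock treatment, so all 3 treated groups are set against the same control arrays. Effects of BMP6 and of time since treatment therefore cannot be told apart in these comparisons. MECs are a single cultured line, and the labels call the arrays of a group independent biological replications.

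HB-EGF, the product of Hbegf, is made as a membrane-anchored precursor, is released by ADAM metalloproteases and binds the EGF receptor and ErbB4. ErbB receptors signal through Ras and Raf to the kinase ERK, which induces a first wave of transcription factors and, with them, its own inhibitors. Dusp6 encodes a cytoplasmic phosphatase that removes the activating phosphates of ERK, and its transcript is widely used as a readout of ERK activity. Myc encodes a transcription factor that pairs with Max at E-box sequences and drives ribosome production, nucleotide synthesis and cell division.

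Each value is the log ratio of the cells to a universal mouse reference RNA on the same array, read here as log2 of cells over reference because the design describes Cy5-labelled cell RNA set against a Cy3-labelled reference. Neither the sign nor the base of the logarithm is stated, so with the opposite sign every rise below would be a fall, and with a natural logarithm every fold would be larger. All 20280 values were present on every array, with medians between -0.044 and 0.002 and SDs between 0.607 and 0.688. Gene names rest on an inferred order of the array positions, in which the first 2 probes of a gene correlated at r = 0.471 over 1831 genes, against r = 0.021 in the deposited order (across genes, which are not independent replicates). Whether a probe stood above background is not known without spot intensities, which were not used here, and ratios of different genes are not set against each other. All groups are bulk RNA, in which fewer cells making a transcript and less of it per cell cannot be told apart.

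The stretch before the start of Dusp6 is shown because, among the 3 genes, it alone has an entry in the RefSeq promoter table used here. It covers 250 bases on the forward strand at chr10:99262981-99263230 of GRCm38.p6, ending at the base before the gene's start, and capitals mark the core letters bound by Ets factors, a family that includes targets of ERK (GGAA, or TTCC for the other strand).
Dusp6: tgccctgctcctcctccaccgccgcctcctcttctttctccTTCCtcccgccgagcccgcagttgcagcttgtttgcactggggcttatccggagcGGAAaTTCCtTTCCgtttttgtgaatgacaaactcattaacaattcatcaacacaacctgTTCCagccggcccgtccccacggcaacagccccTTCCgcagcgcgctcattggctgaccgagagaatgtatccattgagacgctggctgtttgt
The core occurred 6 times in this window, and at least once in 93.45% of the 32851 windows of the same length in the table. How many windows held it 6 times or more was not counted. The AP-1 letters TGANTCA, the CRE letters TGACGTCA and the E-box letters CACGTG, searched on both strands, were not in this window, and occurred in 6.749%, 1.546% and 6.021% of all windows. The motifs do not overlap, and a match of letters is a description and not a binding site.

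**Figure D1:**
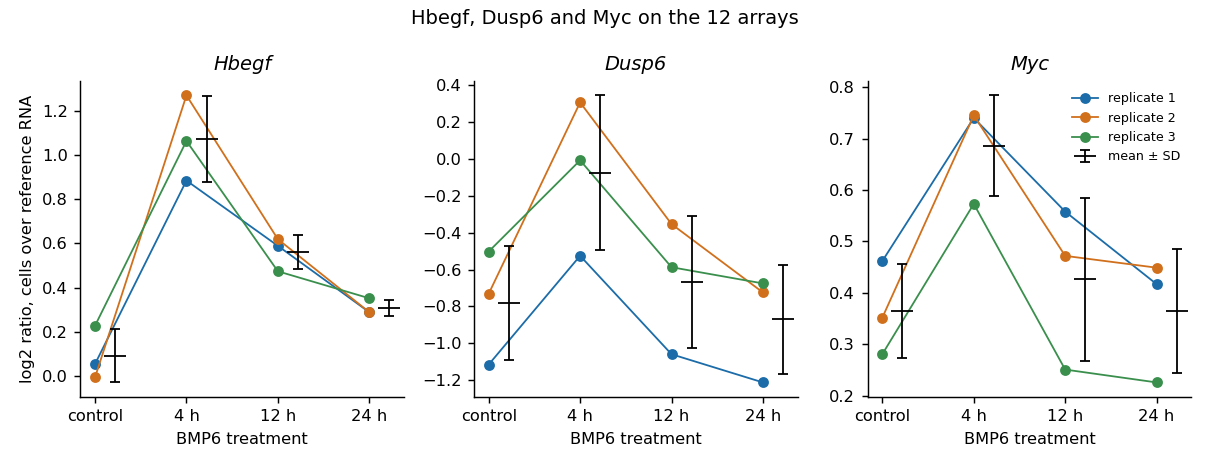
Log2 ratio of cells over reference RNA (vertical axis, a separate scale for each gene) of Hbegf, Dusp6 and Myc in control cells and after 4, 12 and 24 h of BMP6, with points of equal replicate number joined and the mean ± SD of 3 arrays in black. All 3 genes are highest at 4 h in each replicate, and replicate 1 of Dusp6 and replicate 3 of Myc are the lowest of their group throughout.

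Hbegf, the ligand, had log2 ratios of 0.88, 1.27 and 1.06 after 4 h of BMP6, against 0.055, -0.005 and 0.23 in control. Every 4 h array thus lay above every control array, which was also so for 3.81% of all genes. The mean was 1.07 ± 0.193 at 4 h and 0.093 ± 0.121 in control (SD, n = 3 each), a log2 difference of 0.98 (SE 0.097) or 1.97-fold, the fifth highest of the 8267 genes. The difference was 0.83, 1.27 and 0.84 in the pairs of replicates 1, 2 and 3, and 14.7% of all genes were likewise higher at 4 h in all 3 pairs.

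Dusp6, the ERK phosphatase, had log2 ratios of -0.53, 0.31 and -0.007 after 4 h, against -1.12, -0.73 and -0.50 in control. The lowest 4 h array, replicate 1, lay between control replicates 2 and 3, so the groups overlapped. Within pairs of equal number the 4 h array was higher by 0.59, 1.04 and 0.50, and 14.7% of all genes were likewise higher in all 3 pairs. The means were -0.075 ± 0.42 at 4 h and -0.78 ± 0.31 in control (SD, n = 3 each), a difference of 0.71 or 1.63-fold, with an SE of 0.246 when arrays of a group are taken as exchangeable and 0.093 when the replicate number is a term of the fit.

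Myc, the transcription factor, had log2 ratios of 0.74, 0.75 and 0.57 after 4 h, against 0.46, 0.35 and 0.28 in control. The 4 h arrays all lay above the control arrays, as for 3.81% of all genes, by a narrower margin than those of Hbegf in log2 units. The means were 0.69 ± 0.098 at 4 h and 0.365 ± 0.0912 in control (SD, n = 3 each), a difference of 0.32 (SE 0.096) or 1.25-fold. By pair the difference was 0.28, 0.39 and 0.29, and 14.7% of all genes were likewise higher in all 3 pairs. Ranked from the highest among all genes, the 4 h difference stood at 16 for Dusp6 and 137 for Myc, against 5 for Hbegf. These 4 h differences chose the genes and are given as a description, with no test.

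After 12 h, Hbegf stood at 0.59, 0.62 and 0.47, again above the control arrays without overlap, as 3.13% of all genes did. Its mean of 0.56 ± 0.0765 compared with 0.093 ± 0.121 in control (SD, n = 3 each), a log2 difference of 0.47 (SE 0.097, 95% interval 0.25 to 0.68) or 1.38-fold. In limma's fit without the replicate number it did not pass (adjusted p = 0.317), where 0 genes passed over the whole table, 0% of those tested (393 genes at an unadjusted p under 0.05, and 1 gene by the methods' t-test after adjustment). With the replicate number as a block the change passed (SE 0.09, adjusted p = 0.0315), as a rise did for 0.472% of all genes, and it was higher in 3 of 3 pairs, by 0.53, 0.62 and 0.25, as were 14.7% of all genes. That call passed in 5 of the 12 fits with the block that left out 1 array. It ended when control replicate 1 (adjusted p = 0.0718) or control replicate 2 (0.141) was left out, and when either of the first 2 arrays at 12 h was (0.167 for replicate 1, 0.139 for replicate 2). Each 24 h array also ended it when left out, at 0.0544, 0.051 and 0.0596 for replicates 1, 2 and 3. The comparison uses the control arrays on which the 4 h difference rests, and its result was known when the genes were chosen.

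Dusp6 at 12 h stood at -1.06, -0.35 and -0.59, a range that overlapped that of control. The mean was -0.67 ± 0.36 at 12 h and -0.78 ± 0.31 in control (SD, n = 3 each), a difference of 0.12 with a 95% interval of -0.42 to 0.66 (adjusted p = 1), or -0.09 to 0.32 with the block (adjusted p = 0.619), and the array was higher in 2 of 3 pairs. Without control replicate 1 or 12 h replicate 2 the difference was -0.05 and -0.04, so its direction turned. Myc at 12 h stood at 0.56, 0.47 and 0.25, with a mean of 0.43 ± 0.158 against 0.365 ± 0.0912 in control (SD, n = 3 each). The Myc difference of 0.062 had a 95% interval of -0.15 to 0.27 (adjusted p = 1; adjusted p = 0.619 with the block), was higher in 2 of 3 pairs, and turned to -0.0035 without 12 h replicate 1.

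After 24 h, Hbegf stood at 0.29, 0.29 and 0.35, above every control array by a small margin, as 2.01% of all genes did. The mean was 0.31 ± 0.0364 at 24 h and 0.093 ± 0.121 in control (SD, n = 3 each), and the difference of 0.22 (SE 0.097, 95% interval 0.0041 to 0.43) did not pass in either fit (adjusted p = 1 without the block and 0.565 with it). It was higher in 3 of 3 pairs, by 0.23, 0.29 and 0.12, as were 13.7% of all genes. Dusp6 stood at -1.21, -0.72 and -0.68, overlapping control, with a difference of -0.088 (95% interval -0.63 to 0.45; adjusted p = 1, and 0.883 with the block). Its direction turned without control replicate 3 (0.053) or 24 h replicate 1 (0.083). Myc stood at 0.42, 0.45 and 0.23, with a mean of 0.364 against 0.365 in control and a difference of -0.001 (95% interval -0.21 to 0.21; adjusted p = 1, and 0.998 with the block). At 24 h, 0 genes of the whole table passed without the block (166 at an unadjusted p under 0.05, and 0 by the methods' t-test after adjustment), and 14 passed with it, 0.169% of all.

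Between the 2 later times, Hbegf was lower at 24 h than at 12 h in 3 of 3 pairs, by -0.30, -0.33 and -0.12, and the ranges did not overlap, as for 3.21% of all genes in that direction. The log2 difference of -0.25 (SE 0.097, 95% interval -0.46 to -0.037) did not pass over all genes (adjusted p = 1, and 0.467 with the block, where 9 genes passed, 0.109% of all). Dusp6 differed by -0.20 (95% interval -0.74 to 0.34; adjusted p = 1, and 0.584 with the block) and Myc by -0.063 (-0.27 to 0.15; adjusted p = 1, and 0.818 with the block), and both were lower at 24 h in 3 of 3 pairs, as 19.2% of all genes were. In this comparison 0 genes passed without the block, 152 had an unadjusted p under 0.05 and 0 passed the methods' t-test after adjustment.

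**Figure D2:**
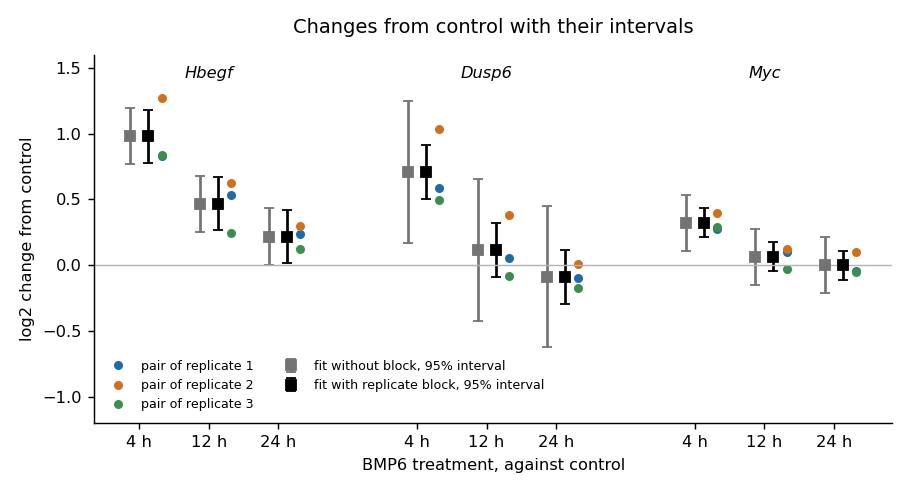
Log2 change from control (vertical axis) of Hbegf, Dusp6 and Myc after 4, 12 and 24 h of BMP6, with squares for the estimate and bars for its 95% interval without (grey) and with (black) the replicate number as a block, and coloured points for the 3 pairs of equal number. At 12 and 24 h the Hbegf intervals lie above 0 and those of Dusp6 and Myc hold 0, the 4 h bars are drawn as a description because those values chose the genes, and the block narrows the bars of Dusp6 and Myc far more than those of Hbegf.

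Ordered by level, Hbegf was highest at 4 h, then 12 h, 24 h and control, and no neighbouring groups in that order overlapped. Of all genes, 3.21% were likewise lower at 24 h than at 12 h and 2.01% higher at 24 h than in control. For 12 h against 4 h the share was not counted. Dusp6 and Myc were highest at 4 h, then 12 h, control and 24 h, and their later groups overlapped with control. From 4 h onward all 3 genes moved down in every pair: at 12 h against 4 h the log2 differences were -0.51 for Hbegf, -0.59 for Dusp6 and -0.26 for Myc, and at 24 h against 4 h they were -0.76, -0.80 and -0.32. Differences that include the 4 h arrays are a description, since high 4 h values chose the genes. How many of all genes moved down from 4 h in every pair was not counted. Set side by side, the log2 difference from control was 0.98 at 4 h and 0.47 at 12 h for Hbegf, 0.71 and 0.12 for Dusp6, and 0.32 and 0.062 for Myc, and the differences between the genes were not tested.

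The 3 genes also differed in how their arrays spread. Replicate 1 was the lowest Dusp6 array in each of the 4 groups, and replicate 3 the lowest Myc array in each, whereas no replicate held one place for Hbegf. Taking out the replicate number lowered the SE of a contrast from 0.246 to 0.093 for Dusp6 and from 0.096 to 0.05 for Myc, and from 0.097 to 0.09 for Hbegf. Arrays of equal number deviated together across the whole table, with 18 of 18 correlations between 0.443 and 0.695, and the labels do not say what they share.

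Among EGF family ligands, 1 other of the 10 listed was measured. Ereg, which encodes the EGF receptor ligand epiregulin, had log2 ratios of -0.10, 0.65 and 0.40 after 4 h, against -0.34, -0.093 and -0.23 in control. Replicate 1 at 4 h lay within the control range, and each 4 h array lay above the control array of its own number, as for 14.7% of all genes. The log2 change was 0.54 in both fits. It did not pass without the block (SE 0.162, adjusted p = 0.302) and passed with it (SE 0.093, adjusted p = 0.00872). The call share with the block was 2.27% among all genes for rises and 3.75% for falls. The Ereg call ended when control replicate 2 (0.0525) or 4 h replicate 3 (0.0513) was left out, and its changes of 0.091 at 12 h and 0.069 at 24 h did not pass (adjusted p 0.706 and 0.895 with the block).

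Of the ErbB receptors, sheddases and their cofactors, 9 of 14 were measured, and none passed at any time in either fit. Their median log2 change was 0.004 at 4 h, -0.044 at 12 h and -0.055 at 24 h, against -0.0062, -0.002 and -0.005 for all genes. Egfr, the main HB-EGF receptor, stood at -0.24 at 12 h (adjusted p = 0.176 with the block) and, a value picked after it was seen, at -0.063 at 4 h (0.709). The metalloprotease gene Adam15 stood at -0.18 at 12 h and -0.099 at 24 h (adjusted p 0.102 and 0.663 with the block), and Erbb4, the other HB-EGF receptor, at -0.067 at 24 h (0.883). The extremes at 4 h were Adam8, a metalloprotease, at 0.24 and Cd9, a tetraspanin that associates with the HB-EGF precursor, at -0.32 (adjusted p 0.142 and 0.149 with the block).

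In the cascade from Ras to ERK, 11 of 22 genes were measured, and 2 fell at 4 h with the block, where 3.75% of all genes fell. Mknk1, a kinase that ERK activates and that phosphorylates the cap-binding protein eIF4E, fell by 0.43 on the log2 scale (SE 0.073 with the block, adjusted p = 0.00724; 0.521 without it). Gab1, a docking protein of growth factor receptors, fell by 0.27 (SE 0.054 with the block, adjusted p = 0.0175; 0.126 without it), a call that ended when control replicate 2 (0.0853), 4 h replicate 2 (0.0846) or 4 h replicate 3 (0.0781) was left out. The median of the list was -0.0017 at 4 h, with 5 of 11 genes above 0, where 3931 of all 8267 genes were. No gene of the list passed at 12 or 24 h. The smallest p there were those of Gab1 at 12 h (-0.15), of Ptpn11, the phosphatase SHP2, at 12 and 24 h (-0.12 and -0.16) and of the kinase Braf at 24 h (0.078), with adjusted p of 0.198, 0.532, 0.685 and 0.829 with the block.

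Of the MAP kinase phosphatases other than Dusp6, 2 of 9 were measured. Dusp4, a nuclear phosphatase of ERK and related kinases, had log2 ratios of 0.95, 1.91 and 1.84 after 4 h, against 0.28, 1.07 and 1.40 in control. The groups overlapped, because replicate 1 was the lowest array of Dusp4 in every group, as it was for Dusp6. Its log2 change of 0.65, the same in both fits, did not pass without the block (SE 0.345, adjusted p = 0.759) and passed with it (SE 0.098, adjusted p = 0.00463). That call held in each of the 12 fits with the block that left out 1 array, but not without all arrays of replicate 2 (adjusted p = 0.134). The change was 0.30 at 12 h and 0.093 at 24 h (adjusted p 0.165 and 0.883 with the block), while Dusp16, a phosphatase of the JNK and p38 kinases, stood at 0.003 at 12 h and 0.017 at 24 h (adjusted p 0.991 and 0.971) and, a value picked after it was seen, at 0.033 at 4 h.

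Among 9 measured of 14 other inhibitors of the pathway, 1 rose at 4 h with the block, where 2.27% of all genes rose. Errfi1, whose product binds and inhibits the kinase domain of ErbB receptors, had log2 ratios of -0.88, -0.24 and -0.39 after 4 h, against -1.24, -1.29 and -1.02 in control. All 4 h arrays lay above all control arrays, as for 3.81% of all genes. The log2 change of 0.68 (SE 0.145) had an adjusted p = 0.0953 without the block and an adjusted p = 0.0197 with it, a call that ended when control replicate 2 (0.0933), 4 h replicate 2 (0.0692) or 4 h replicate 3 (0.089) was left out. Errfi1 stood at -0.035 at 12 h and -0.20 at 24 h (adjusted p 0.941 and 0.803 with the block). The median of the list at 4 h was 0.04, with 6 of 9 genes above 0, where 3931 of all 8267 genes were. Spred2, an inhibitor of Ras signalling, stood at 0.118 and 0.104 at 12 and 24 h and Pebp1, which binds Raf, at -0.098 at 12 h (adjusted p 0.32, 0.689 and 0.553 with the block). Spry4 and Spred1, feedback inhibitors of Ras signalling named here after their values were seen, stood at 0.04 and 0.055 at 4 h (adjusted p 0.672 and 0.637 with the block).

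**Figure D3:**
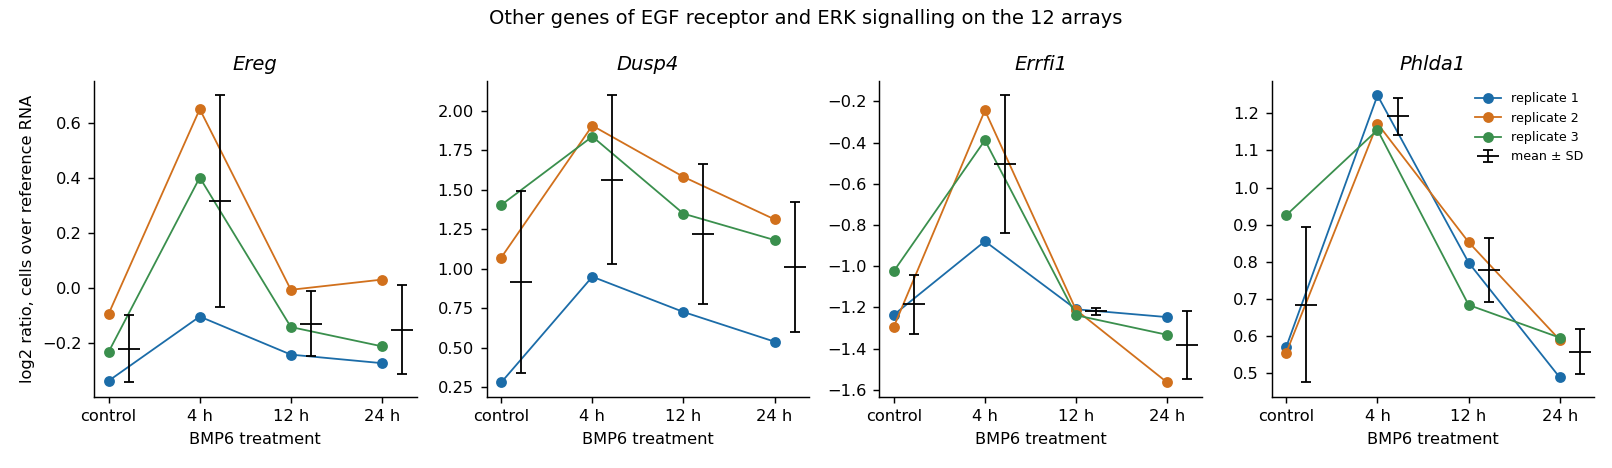
Log2 ratio of cells over reference RNA (vertical axis, a separate scale for each gene) of Ereg, Dusp4, Errfi1 and Phlda1 in control cells and after 4, 12 and 24 h of BMP6, with points of equal replicate number joined and the mean ± SD of 3 arrays in black. Each gene is highest at 4 h in every replicate, and Dusp4 replicate 1 is the lowest array of its group throughout.

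The list of ERK-regulated transcription factors and immediate early genes held 15 measured of 25. Of the 15, 13 lay above 0 at 4 h, where 3931 of all 8267 genes did, with a median of 0.118 against -0.0062 for all genes. With the block 4 of them rose and 0 fell, where 2.27% of all genes rose, and without it 0 passed (of all genes 14 did, 0.169%). Phlda1, a pleckstrin homology-like protein that is no transcription factor, had log2 ratios of 1.25, 1.17 and 1.16 after 4 h, against 0.57, 0.56 and 0.93 in control, without overlap, as for 3.81% of all genes. It rose by 0.51 with the block (SE 0.092, adjusted p = 0.0109; 0.0633 without it), and that call ended when control replicate 2 was left out (0.0606). Elk3, an Ets factor of the ternary complex class that ERK phosphorylates, rose by 0.41 (adjusted p = 0.00418; 0.069 without the block) and passed in all 12 fits with the block that left out 1 array, but not without all arrays of replicate 2 (adjusted p = 0.146).

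Ier3, an immediate early regulator of cell survival, rose by 0.52 with the block (adjusted p = 0.0164; 0.792 without it), and its call ended when control replicate 2 (0.0756) or 4 h replicate 2 (0.0695) was left out. Klf6, a zinc finger factor, rose by 0.19 with the block (adjusted p = 0.0466; 0.733 without it), and passed in 1 of the 12 fits that left out 1 array, with adjusted p up to 0.167. Fos, Jun and Egr1, the best known of the list and named after their values were seen, stood at -0.052, -0.00033 and 0.44 at 4 h and did not pass (adjusted p 0.814, 0.999 and 0.149 with the block). None of the 15 passed at 12 or 24 h. The smallest p were those of Elk3 (0.115) and Srf, the serum response factor (0.142), at 12 h, and of Ier5 (-0.149) and the Ets factor Etv1 (-0.18) at 24 h, with adjusted p of 0.427, 0.359, 0.634 and 0.807 with the block.

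Of the list of Myc paralogues, partners and related factors, 7 of 13 were measured and none passed in either fit at any time. Max was not among the 7, so the partner with which Myc pairs was not examined. The paralogue Mycn stood at -0.16 and the Max-binding antagonist Mxi1 at -0.21 at 4 h (adjusted p 0.19 and 0.111 with the block), and Mxi1 at -0.28 at 12 h (0.0886). Mga, which also pairs with Max, stood at 0.067 at 12 h, and Mycn and Mlx, a Max-like factor, at -0.11 and 0.124 at 24 h (adjusted p 0.556, 0.751 and 0.829 with the block). Of 23 measured genes among 28 known targets of Myc, 0 passed at any time. Their median log2 change was 0.051 at 4 h with 16 of 23 above 0, 0.112 at 12 h with 20 of 23 above 0, and -0.00067 at 24 h with 11 of 23 above 0. Of all 8267 genes, 3931, 4077 and 3915 lay above 0 at 4, 12 and 24 h, with medians of -0.0062, -0.002 and -0.005. Among the 23 targets, the smallest p at 12 h were those of Pa2g4, a growth-regulated nucleolar protein, at 0.25 and Nolc1, a nucleolar chaperone, at 0.17 (adjusted p 0.0935 and 0.103 with the block), and at 4 h those of Nolc1 at 0.16 and Srm, the spermidine synthase gene, at 0.17 (0.0666 and 0.0694). At 24 h they were Shmt2, a mitochondrial enzyme of one-carbon metabolism, at 0.115 and Nolc1 at 0.056 (0.807 and 0.829).

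The 9 list genes called at 4 h were also compared between 24 h and 4 h, a difference that rests in part on the 4 h arrays for which they were named. Genes named for high or low 4 h values lean the other way here by that choice. The calls and shares below are thus a description and no test. With the block 6 of them were lower at 24 h, where 2.2% of all genes were. These were Errfi1 (log2 difference -0.88, adjusted p = 0.00841), Phlda1 (-0.63, 0.00669), Ier3 (-0.60, 0.0113), Dusp4 (-0.55, 0.0132), Ereg (-0.47, 0.0209) and Elk3 (-0.33, 0.0165). Gab1 was higher at 24 h (0.26, adjusted p = 0.0232), where 1.85% of all genes were, and Mknk1 (0.29) and Klf6 (-0.143) did not pass (0.0547 and 0.143). Without the block Phlda1 passed (adjusted p = 0.0478, with 0.0484% of all genes lower) and Errfi1 had an adjusted p = 0.0527.

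**Figure D4:**
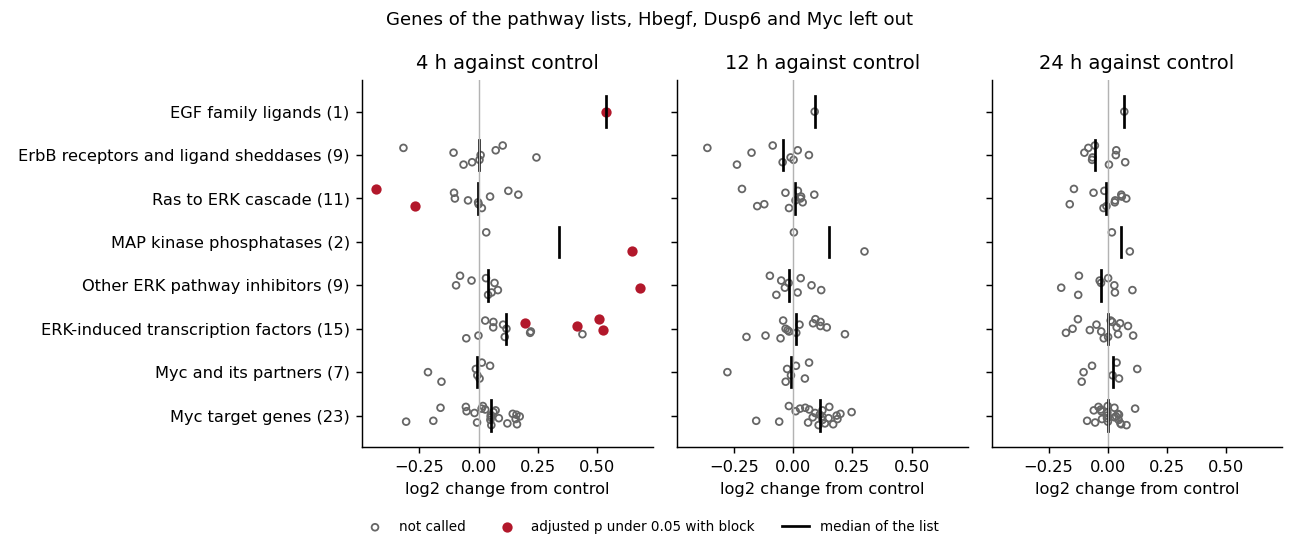
Log2 change from control (horizontal axis) after 4, 12 and 24 h of BMP6 for the genes of the 8 lists, with the number measured in brackets, red points for genes with an adjusted p under 0.05 in the fit with the replicate block and black bars for list medians. At 4 h 7 genes rise and 2 fall among the 77 measured, and at 12 and 24 h none is red.

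Over the 8 lists together, leaving out Hbegf, Dusp6 and Myc, 77 of 135 genes were measured. With the block 7 rose and 2 fell at 4 h, or 9 of 77 against 6.02% of all genes called in either direction, and 0 of 77 passed at 12 h and 0 at 24 h in either fit (156 and 14 genes of the whole table passed with the block, 1.89% and 0.169%). The 7 that rose were Ereg, Dusp4, Errfi1, Elk3, Phlda1, Ier3 and Klf6. The lists were drawn up with earlier results of these arrays known, so these counts describe the lists and do not test them.

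Of the cell type markers, 5 endothelial ones were measured (Pecam1, Cdh5, Kdr, Flt1 and Esam), and their mean log2 ratio per array ran from -1.121 to -1.003 at 4 h, -1.25 to -1.06 at 12 h and -1.34 to -1.09 at 24 h, against -1.06 to -1.01 in control, with 0 of 5 above 0 in control. With the block 1 of the 5 was called at 4 h, where 6.02% of all genes were. Since the reference is a mixed RNA and no spot intensities were used, these ratios do not settle whether the cells express them. Above 0 in control lay 4 of 6 fibroblast, 3 of 5 smooth muscle, 0 of 6 epithelial and 0 of 2 blood markers. The mean of 6 fibroblast markers ran from -0.91 to -0.42 at 4 h and from -0.66 to -0.28 in control, and with the block 2 of the 6 were called at 4 h and 1 at 12 h, against 6.02% and 1.89% of all genes. The 5 smooth muscle markers ran from -0.64 to -0.53 at 4 h and from -0.70 to -0.63 in control, with 1 of 5 called at 4 h, and 0 of 6 epithelial and 0 of 2 blood markers were called. The part of these markers in the changes above was not tested.

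The genes whose pattern came closest to each of the 3 were sought by Pearson r over the 12 arrays, after subtracting the mean of each replicate number. The points share their arrays and a high 4 h group, so r is a description of the pattern. For Hbegf the 5 closest were Il1rap, a subunit of the interleukin 1 receptor (r = 0.995), Tnfrsf12a, the TWEAK receptor (0.981), the actin crosslinker Actn1 (0.981), the receptor tyrosine kinase Epha2 (0.977) and Ptgs2, which encodes cyclooxygenase 2 (0.971). Il1rap averaged 0.83, 0.42 and 0.12 at 4, 12 and 24 h, against -0.057 in control, so its mean was lower at each later time. The gene with the lowest r was the protease Adamts5 (-0.972).

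For Dusp6 the closest were the growth factor Pdgfa (r = 0.979), the membrane receptor Gprc5a (0.972), the Bcl-2 family member Bok (0.969), the matricellular factor Ccn2 (0.968) and the phosphate transporter Slc20a1 (0.967). Without subtraction of the replicate means the same r was 0.559 for Pdgfa and 0.347 for Bok, and 0.931 for Gprc5a. For Myc they were Gprc5a (0.972), the heme-degrading enzyme Hmox1 (0.971), the sulfiredoxin gene Srxn1 (0.968), Niban2 (0.967) and Elk3 (0.963). The kinase Nek7 had the lowest r with both Dusp6 (-0.960) and Myc (-0.975), and differed by -0.13 at 4 h. Without the subtraction r was 0.663 for Gprc5a, 0.558 for Hmox1, 0.652 for Srxn1, 0.541 for Niban2 and 0.866 for Elk3 with Myc, and that of Nek7 turned to 0.061 with Myc and was -0.828 with Dusp6.

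Among the 3 genes themselves, r was 0.925 for Hbegf with Dusp6, 0.933 for Hbegf with Myc and 0.954 for Dusp6 with Myc, again over 12 arrays with replicate means subtracted. Without the subtraction these were 0.774, 0.741 and 0.41. Dusp6 and Myc each ranked 13 in the order of likeness to the other. Dusp6 ranked 47 and Myc 42 in the order of likeness to Hbegf.

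**Figure D5:**
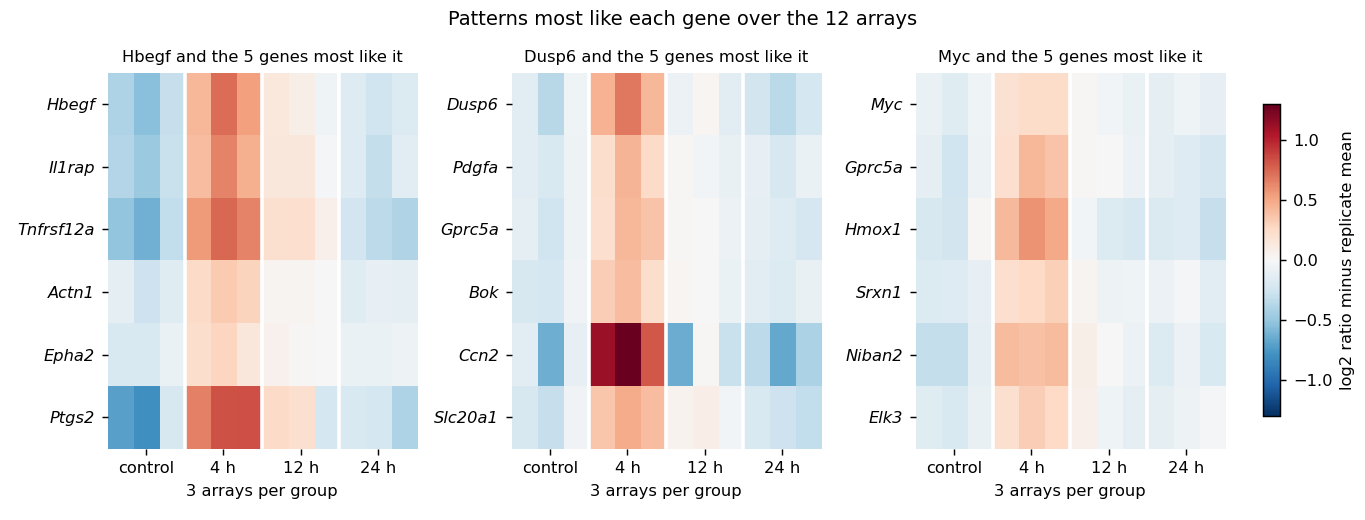
Log2 ratio after subtraction of the mean of each replicate number (colour, red high and blue low) on the 12 arrays, grouped by treatment, for Hbegf, Dusp6 and Myc and the 5 genes most like each. All rows are red at 4 h, and at 12 h Il1rap, Tnfrsf12a and Ptgs2 stay pale red on the arrays of replicates 1 and 2, where most other rows are near 0. Hbegf is at 0.135 and 0.076 on these 2 arrays, and Ccn2 is blue on that of replicate 1 (-0.64).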

How the data were processed

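RNA of 12 MEC samples was set against a universal mouse reference RNA on two-colour arrays that the authors scanned and quantified with GenePix tools, per the labels. The deposited values, read here as log2, had been put through a modified quantile algorithm by the authors, per the labels; their base, their sign and any background correction are unstated. Groups and replicate numbers come from the sample titles. Probe numbers were placed on a grid of 215 by 105 positions by a formula chosen with the genes and tested here on probe agreement. Of the 11083 listed probes, 10576 have 1 symbol, updated through gene identifiers, and the formula gave each of these a value. The 507 probes with several symbols were left out. Probes of a gene were averaged. All 8267 genes on 12 arrays entered one fit by lmFit and eBayes of limma 3.58.1 under R 4.3.3. Its p-values were two-sided, adjusted by Benjamini-Hochberg over all genes, and called under 0.05. It was run without and with the replicate number as a block. Arrays of equal number correlated in their deviations from the group means at 0.443 or more and others at 0.069 at most, so by a limit of 0.1 the numbers pair the samples; the labels give the numbers but no shared source. Genes, lists, tests and alternatives were chosen with earlier results of these data known. From each list, the text names the genes called in either fit (at most 4 per comparison), and otherwise values of the 2 with the smallest p; other names are marked. On simulated data for 12 h against control in 8267 genes, log2 changes of 0.5 were recovered for 60% without the block and 90% with it, with 0 false calls in 175 and 8 in 202. These data held 50 changed genes at each of 0.5, 1, 1.5 and 2. Their replicate effects were made equal in all groups, which favours the block by construction. The shares therefore do not give the power on the real arrays, where 0 genes passed at 12 h without the block. The number of arrays limits the precision.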

Additional observations from a re-analysis of the deposited data

Results flagged for a closer look

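Phlda1 was called lower at 24 h than at 4 h, with a log2 difference of -0.633 (limma, 3 arrays per group, adjusted p = 0.0478 without the block and 0.00669 with it). Phlda1 was also lower in each pair of equal number, and the share of all genes that were was not counted. It was named for its high 4 h values, on which this difference also rests, so it is not independent of that choice. Its p-values are therefore no separate evidence of a fall. With the block the same difference was also called lower for Errfi1, Ier3, Dusp4, Ereg and Elk3, so it is not particular to Phlda1.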

How the results depend on the processing

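The sign and base of the log ratios, 3 arrays per group and the inferred array order limit all results. With the replicate block the Hbegf difference at 12 h (0.468, adjusted p = 0.0315) passed and no other call on Hbegf, Dusp6 or Myc changed; it missed with probes tested singly under the block (adjusted p = 0.0686), and without a whole replicate number (0.196, 0.222 and 0.0632). Leaving out 1 array or number gave 0.832 to 1.073 for Hbegf at 4 h and 0.38 to 0.579 at 12 h, where the adjusted p ran from 0.0179 to 0.222 with the block and from 0.1305 to 0.861 without it. The 4 h calls of Mknk1, Dusp4 and Elk3, kept without any 1 array, did not all hold without a whole replicate number (adjusted p up to 0.105, 0.134 and 0.146). Uncalled differences changed sign, with -0.04983 to 0.3127 for Dusp6 at 12 h, -0.254 to 0.08317 for Dusp6 at 24 h, -0.0035 to 0.15 for Myc at 12 h, -0.05 to 0.068 for Myc at 24 h and -0.151 to 0.006 for Myc at 24 h against 12 h. Quantile normalization put Myc at 24 h at 0.002417, and centring put Dusp16 at 12 h at -0.001667. Over all genes, 14 were called at 4 h (10 higher and 4 lower), 27 after quantile normalization (22 higher and 5 lower), 498 with the block (188 higher and 310 lower), 548 probes with the block, and 0 with only the groups compared and by the methods' t-test. At 12 h the 0 calls became 156 with the block, 109 probes with it, 1 after quantile normalization and 1 by that t-test; at 24 h 14 and 4 probes with the block; and at 24 h against 12 h 9 and 4 probes with the block and 1 after quantile normalization. Leaving out 1 array or number gave 3 to 642 genes at 4 h, 0 to 288 at 12 h, 0 to 16 at 24 h and 0 to 28 at 24 h against 12 h, counts with the block included. The cause of these moves was not tested.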
